A study of Homo sapiens with 12 samples.

Results

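The phagocyte NADPH oxidase was followed in U937 cells, an established human myeloid line that resembles immature monocytes, through 5 of its genes: CYBB, CYBA, NCF4, RAC1 and RAC2. They were found by symbol: 14 probe sets were listed with 1 of these symbols and no other, and each gene was read from the brightest of its probe sets, by the mean of all 12 arrays, which gave 5 of the 19775 genes measured. The cells received the DMSO vehicle or JS-K, a diazeniumdiolate prodrug of nitric oxide, for 90 min, 4 h or 24 h, with 3 arrays labelled as biological replicates in each of the 4 groups. All groups are of the same cell line in the same medium with serum, and the dose of JS-K and the time in vehicle are not given in the sources used here. With a single vehicle group, time in culture and JS-K cannot be told apart.

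The oxidase makes superoxide in the phagosome by passing electrons from NADPH across the membrane to oxygen. CYBB encodes its catalytic, heme-bearing subunit, also called NOX2, and CYBA the smaller membrane subunit that stabilises it. A cytosolic complex that includes the NCF1 and NCF4 products, and a Rac GTPase, must join them before the enzyme works. Loss of CYBB, CYBA or a cytosolic subunit causes chronic granulomatous disease, in which phagocytes take up microbes but kill them poorly. Myeloid cells raise most of these genes as they mature.

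On the GRCh38.p14 assembly, CYBB lies on chromosome X (37780059 to 37813461), CYBA on chromosome 16 (88643289 to 88651053) and RAC1 on chromosome 7 (6374527 to 6403967). NCF4 (36861006 to 36878015) and RAC2 (37225270 to 37244269) lie near each other on chromosome 22. The RefSeq promoter table held 2 of the 5 genes, CYBB and CYBA. The 250 bases before each start are shown because these membrane subunits form 1 heterodimer in the protein, while their RNA levels moved by very different amounts. Capitals mark matches, on either strand, to CCAAT (the CCAAT box), GAGGAA (a site of the PU.1 type), GGGCGG (the GC box) and the interferon response element. The CYBB stretch is chrX:37779809-37780058 on the plus strand and the CYBA stretch is chr16:88651054-88651303 on the minus strand.
CYBB: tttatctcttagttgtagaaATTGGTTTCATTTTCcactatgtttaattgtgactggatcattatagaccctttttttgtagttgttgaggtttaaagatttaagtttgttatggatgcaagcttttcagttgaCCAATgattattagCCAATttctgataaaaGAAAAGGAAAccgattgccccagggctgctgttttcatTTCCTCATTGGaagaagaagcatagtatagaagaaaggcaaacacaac
CYBA: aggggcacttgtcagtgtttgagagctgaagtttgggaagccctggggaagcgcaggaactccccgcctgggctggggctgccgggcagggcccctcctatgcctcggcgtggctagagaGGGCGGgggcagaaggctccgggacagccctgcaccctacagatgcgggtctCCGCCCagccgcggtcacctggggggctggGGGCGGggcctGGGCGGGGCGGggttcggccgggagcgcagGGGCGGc
The CYBB stretch held 4 CCAAT matches, 1 GAGGAA match and 2 matches to the interferon response element, with no GGGCGG. Its GAGGAA match, 48 to 43 bases before the start, adjoins a CCAAT match at 42 to 38. The CYBA stretch held 6 GGGCGG matches, a pair of which overlap, and none of the other motifs. Neither held TGANTCA, the site of AP-1 factors. Among 35116 RefSeq promoters read over the same length, 32% held CCAAT, 23.6% GAGGAA, 3.02% the interferon response element, 42.6% GGGCGG and 6.57% TGANTCA. These matches describe the letters and show no binding.

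Values are the deposited levels on the log2 scale. A difference of 1 is therefore a doubling, and levels under 4 are read as low signal. Array medians lay between 2.84 and 3.10, the highest on replicate 2 of the 4 h group, which also had the lowest upper quartile (6.20). Bacterial poly-A transcripts added as a labelling control averaged 3.12 ± 0.13 on vehicle arrays, 3.14 ± 0.07 at 90 min, 7.29 ± 0.16 at 4 h and 8.80 ± 0.03 at 24 h (SD, n = 3). Spike level was alike on the vehicle and 90 min arrays and differed, with no overlap, between these and the 4 h arrays and between 4 h and 24 h. In every comparison but 90 min with vehicle, spike handling and exposure therefore cannot be told apart. Probe sets for 28S ribosomal RNA averaged 8.03 ± 0.16 at 24 h, against 6.59 ± 0.13 in vehicle. The 3′ minus 5′ difference of the control probe sets, a sign of RNA integrity, also moved: for GAPDH it was 0.129 ± 0.014 at 24 h, against 0.0048 ± 0.017 in vehicle, and for ACTB 0.961 ± 0.041 at 24 h, against 0.804 ± 0.034 in vehicle, with 1.15 on JS-K 4 h replicate 2. The part of these measures in the results was not tested. Of 14 measured myeloid markers, LYZ (13.6 in vehicle) and ELANE (13.6) were high, while MPO (2.37), CD14 (2.16) and CD163 (2.53) lay at low signal. Of the markers of other lineages, 7 of 8 lymphoid, 6 of 6 erythroid and megakaryocyte, 9 of 10 epithelial and fibroblast and 6 of 9 late neutrophil genes had means under 4. So did 10224 of all 19775 genes.

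**Figure D1:**
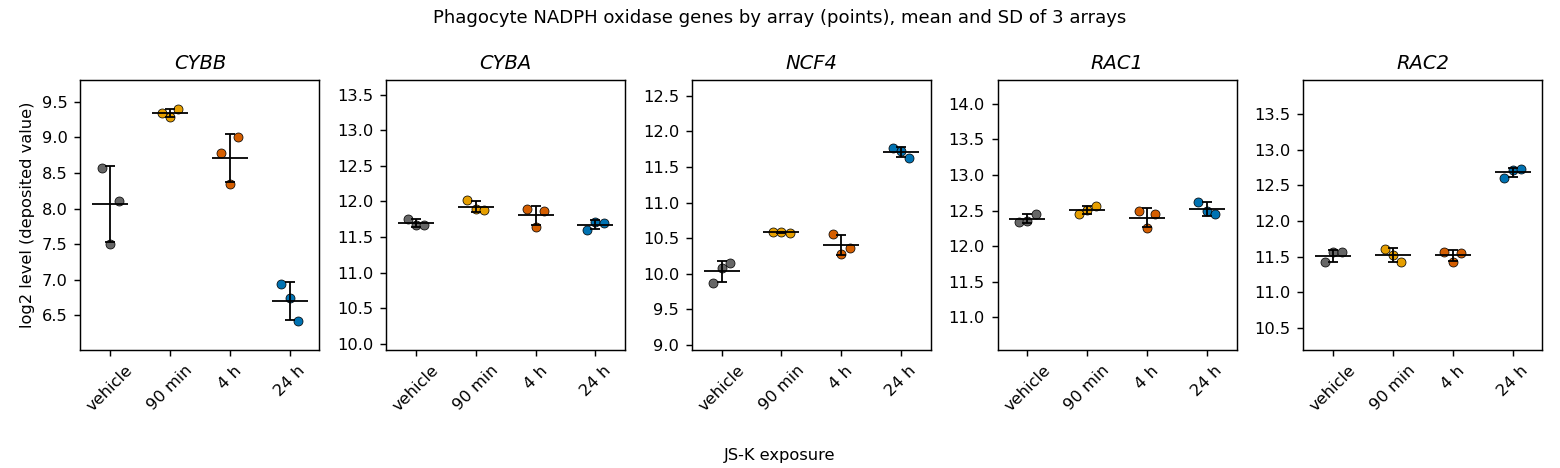
Log2 level of each oxidase gene (vertical axis) on the 12 arrays, by JS-K exposure; points are arrays, and the bar with whiskers is the mean with the SD of 3 arrays. Each panel spans the same log2 range. CYBB peaked at 90 min (9.34) and was lowest at 24 h (6.70), NCF4 and RAC2 were highest at 24 h, and CYBA and RAC1 moved little.

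The 5 genes did not move as a unit. CYBB, the catalytic subunit, rose early and fell late: it was 2.43-fold higher at 90 min and 2.56-fold lower at 24 h than in vehicle. NCF4, the phosphoinositide-binding cytosolic subunit, rose at every time on the probe set chosen for it and was 3.20-fold higher at 24 h. RAC2, the blood-cell Rac, was 2.25-fold higher at 24 h and differed little before. CYBA, the partner of CYBB, and RAC1, the Rac found in most tissues, did not pass the test against vehicle at any time on their chosen probe sets. Other RAC1 probe sets passed at 4 h or at 24 h. In bulk RNA, fewer cells that express a gene and less of its RNA per cell cannot be told apart.

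Differences were tested with limma on all 12 arrays, with Benjamini-Hochberg adjustment over the 19775 genes, and calls were made below an adjusted p of 0.05. At 90 min 2 of the 5 genes were higher and 3 did not pass, against 9.64% of all genes called, 4.03% higher and 5.62% lower. At 4 h 2 were higher and 3 did not pass (40.6% of all genes called, 23.9% higher and 16.6% lower). At 24 h 2 were higher, 1 was lower and 2 did not pass (36.7% of all genes called, 17.8% higher and 18.9% lower). All 5 genes had a mean of at least 4, and among the 9551 such genes 18.6%, 47.1% and 63% were called at 90 min, 4 h and 24 h. The 3 of 5 called at 24 h thus lay near the share of comparably bright genes. Between times, 0 of the 5 were called at 4 h against 90 min in limma (10.6% of all genes), with 1 of them at an unadjusted p under 0.05. At 24 h against 4 h, 2 were higher and 1 lower (23.5% of all genes, 12.8% higher and 10.7% lower), and at 24 h against 90 min 2 were higher and 2 lower (30.3%, 14.6% higher and 15.7% lower). The share of calls that were higher depended on scaling in some comparisons: at 4 h against vehicle it was 59.0% as deposited and 47.0% after quantile normalization, and with array medians subtracted it was 32.7%, beside 54.5%, at 24 h against 4 h and 28.4%, beside 48.2%, at 24 h against 90 min. The median difference of the 5 was 0.23, 0.11 and 0.14 at the 3 times, beside 0.01, 0.06 and 0.06 over all genes. The F test over the 4 groups was passed by 4 of the 5, all but RAC1, and by 38.1% of all genes. JS-K and vehicle arrays were fully separated for 3 oxidase genes at 90 min, 1 at 4 h and 3 at 24 h, where 26.9%, 70.2% and 82.3% of all genes were. Shares separated between times of JS-K are not given here.

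CYBB stood at 8.56, 7.50 and 8.11 on the vehicle arrays, at 9.34, 9.29 and 9.40 at 90 min, at 8.78, 8.35 and 9.01 at 4 h and at 6.94, 6.75 and 6.42 at 24 h. All 90 min arrays lay above, and all 24 h arrays below, every vehicle array, while the 4 h arrays overlapped those of vehicle. The 3 vehicle arrays were themselves spread widely, with replicate 2 lowest.

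At 90 min CYBB averaged 9.34 ± 0.06, against 8.06 ± 0.53 in vehicle (SD, n = 3 each). The difference was 1.28 ± 0.24 (SE, adjusted p = 0.00443), and 69 of the 19775 genes rose by more. At 24 h CYBB averaged 6.70 ± 0.26, against 8.06 ± 0.53 in vehicle, a difference of −1.36 ± 0.24 (adjusted p = 0.000540), and 807 genes fell by more. Both calls held in each of the 16 alternatives run for them, but the mean over all 4 CYBB probe sets, of which 2 lay at low signal, gave smaller differences of 0.71 at 90 min and −0.89 at 24 h. The rise at 90 min was thus among the larger ones of its comparison, and the fall at 24 h was exceeded by many more genes.

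At 4 h CYBB averaged 8.71 ± 0.34, against 8.06 ± 0.53 in vehicle. The difference of 0.65 ± 0.24 passed narrowly (adjusted p = 0.0476) and did not pass in 8 of 15 alternatives. Without vehicle replicate 2 it was 0.37 (adjusted p = 0.148), and without JS-K 4 h replicate 2 it was 0.83 (0.0388). The order of the group means was 90 min, 4 h, vehicle and 24 h. The neighbours 4 h and 90 min did not differ by the test (−0.63 ± 0.24, adjusted p = 0.130), although every 4 h array lay below every 90 min array. The step between 24 h and 4 h was −2.01 ± 0.24 (adjusted p = 4.08e-05). Against 90 min the 24 h difference was −2.64 ± 0.24, a 6.24-fold lower level (adjusted p = 2.18e-06), and 68 genes fell by more.

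CYBA had levels of 11.76, 11.67 and 11.66 in vehicle, 12.02, 11.90 and 11.88 at 90 min, 11.90, 11.65 and 11.86 at 4 h, and 11.60, 11.71 and 11.70 at 24 h. The 90 min arrays all lay above the vehicle arrays by a small margin, and the other groups overlapped vehicle. At 90 min the difference from vehicle was 0.23 ± 0.07 (adjusted p = 0.0609), with an unadjusted 95% interval of 0.08 to 0.39. It passed without JS-K 4 h replicate 2, an array of neither group that widens the shared spread (adjusted p = 0.0118). At 4 h CYBA gave 0.11 ± 0.07 (interval −0.05 to 0.26) and at 24 h −0.02 ± 0.07 (interval −0.18 to 0.13), both against vehicle. The comparison of 24 h with 90 min was called (−0.26 ± 0.07, adjusted p = 0.0137), but not without JS-K 90 min replicate 1 (0.0642) or JS-K 24 h replicate 1 (0.0604). CYBA therefore ranked its groups like CYBB, with 90 min first and 24 h last, over a range of 11.67 to 11.93 in group means, and no neighbours in that order passed the test.

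NCF4 encodes the cytosolic subunit that binds phosphatidylinositol 3-phosphate on the phagosome. Its levels were 9.87, 10.08 and 10.15 in vehicle, 10.59, 10.58 and 10.57 at 90 min, 10.56, 10.28 and 10.36 at 4 h, and 11.77, 11.73 and 11.63 at 24 h. In each JS-K group every array lay above every vehicle array, and the 24 h arrays stood clear of all others. The differences from vehicle were 0.55 ± 0.08 at 90 min (adjusted p = 0.00125), 0.37 ± 0.08 at 4 h (0.00691) and 1.68 ± 0.08 at 24 h (1.14e-08). At 24 h the mean was 11.71 ± 0.07, against 10.03 ± 0.14 in vehicle (SD, n = 3 each), and 320 genes rose by more. The step between 24 h and 4 h was 1.31 ± 0.08 (adjusted p = 2.76e-07), and 4 h did not differ from 90 min by the test (−0.18 ± 0.08, adjusted p = 0.140). NCF4 thus moved with CYBB at 90 min and opposite to it at 24 h, with both differences past the test at each of those times.

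RAC2 encodes the Rac GTPase of blood cells, which carries the activating signal to the oxidase in neutrophils. It stood at 11.42, 11.56 and 11.56 in vehicle, 11.61, 11.53 and 11.42 at 90 min, 11.57, 11.43 and 11.56 at 4 h, and 12.61, 12.71 and 12.73 at 24 h. The first 3 groups overlapped throughout, and the 24 h arrays lay above all of them. At 24 h RAC2 averaged 12.68 ± 0.07, against 11.51 ± 0.08 in vehicle, a difference of 1.17 ± 0.07 (adjusted p = 2.91e-08), with 696 genes rising by more. Against 4 h the 24 h difference was 1.17 ± 0.07 (adjusted p = 1.05e-07). At 90 min and 4 h the differences from vehicle were 0.01 ± 0.07 each, with intervals of −0.14 to 0.15.

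RAC1, the widely expressed relative and the main Rac of the oxidase in monocytes, had group means of 12.38 ± 0.06 in vehicle, 12.51 ± 0.06 at 90 min, 12.40 ± 0.13 at 4 h and 12.52 ± 0.09 at 24 h (SD, n = 3). Its arrays ran from 12.25 (4 h) to 12.63 (24 h), and all groups overlapped. The differences from vehicle were 0.12 ± 0.07, 0.02 ± 0.07 and 0.14 ± 0.07 at the 3 times (adjusted p = 0.438, 0.862 and 0.126). The intervals reached at most 0.28, 0.17 and 0.29, so a larger mean rise of this probe set lies outside them.

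**Figure D2:**
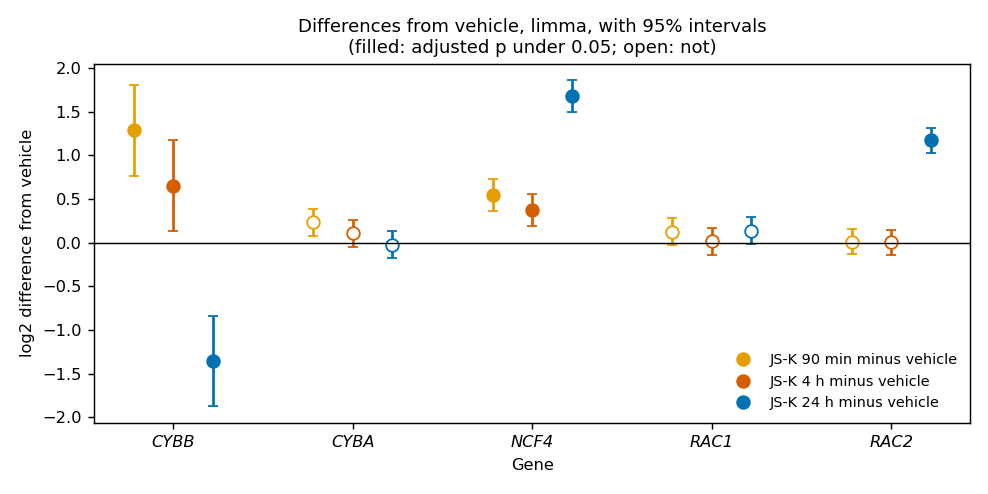
Log2 difference from vehicle of each oxidase gene at 90 min, 4 h and 24 h of JS-K, with unadjusted 95% intervals of the limma fit; filled points had an adjusted p under 0.05. CYBB changes sign between 4 h (0.65) and 24 h (−1.36), while NCF4 (1.68) and RAC2 (1.17) are highest at 24 h.

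The oxidase probe sets not chosen for the genes bear on how far a gene's result depends on its probes. Of the 14 probe sets, 10 had a mean of at least 4, and these were tested in a fit of every probe set with 1 symbol, in which 6.72% were called at 90 min, 32.4% at 4 h and 30.5% at 24 h. The other CYBB probe set above low signal, 203922_s_at, moved further than the chosen one. It gave 1.52 ± 0.23 at 90 min (adjusted p = 0.00205), 0.99 ± 0.23 at 4 h (0.0115) and at least 2.28 ± 0.23 downward at 24 h, where its mean of 3.97 had reached low signal, against 6.26 in vehicle. The remaining CYBB probe sets, 217431_x_at and 233538_s_at, lay between 2.11 and 2.33 on every array. Both were called higher at 4 h, by 0.08 ± 0.03 (adjusted p = 0.0456) and 0.06 ± 0.02 (0.0343), with all means at low signal, and these calls are not read as a change.

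The other NCF4 probe set, 207677_s_at, gave 1.70 ± 0.09 at 24 h, beside 1.68 for the chosen one, and the other RAC2 probe set, 207419_s_at, gave 1.18 ± 0.08, beside 1.17. At 4 h 207677_s_at did not pass (0.25 ± 0.09, adjusted p = 0.0547), while the chosen NCF4 probe set did in the same limma fit (0.37 ± 0.09, 0.0106). For NCF4 and RAC2 the probe sets moved alike at 24 h. For RAC1 they did not. Probe set 1567458_s_at gave 0.34 ± 0.09 at 90 min (adjusted p = 0.0528 in limma), 0.44 ± 0.09 at 4 h (0.00652) and 0.12 ± 0.09 at 24 h (0.309). Probe set 208641_s_at gave 0.16 ± 0.07 at 90 min (0.239), 0.17 ± 0.07 at 4 h (0.0576) and 0.37 ± 0.07 at 24 h (0.00105). The RAC1 results are therefore those of single probe sets. The mean of all 4 RAC1 probe sets passed the test at 4 h (0.26, adjusted p = 0.0107) and at 24 h (0.22, adjusted p = 0.0149). That mean takes in 1567457_at, which lay at low signal and gave 0.41 ± 0.14 at 4 h and 0.28 ± 0.14 at 24 h.

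**Figure D3:**
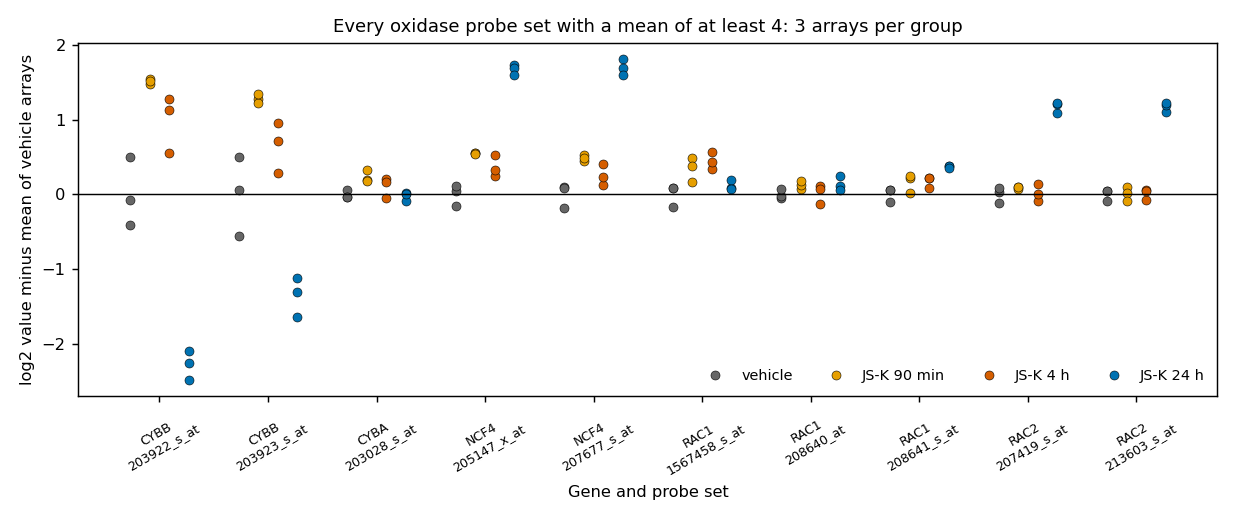
Log2 value minus the mean of the vehicle arrays (vertical axis) for the 10 oxidase probe sets with a mean of at least 4, with 3 arrays per group as points. Both CYBB probe sets rise at 90 min and fall at 24 h, and both NCF4 and both RAC2 probe sets rise at 24 h. Of the 3 RAC1 probe sets 208641_s_at is highest at 24 h and 1567458_s_at at 4 h. The means of 208640_at are nearly the same at 24 h (12.52) and 90 min (12.51).

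Among other proteins of the complex, NCF1, the organiser that carries the cytosolic subunits to the membrane, had a single probe set under its own symbol. It stood at 4.14, 4.28 and 4.43 in vehicle, 4.86, 5.01 and 4.86 at 90 min, 4.82, 4.57 and 4.67 at 4 h and 6.07, 6.03 and 6.03 at 24 h. The differences from vehicle were 0.63 ± 0.13 at 90 min (adjusted p = 0.0100), 0.40 ± 0.13 at 4 h (0.0419) and 1.76 ± 0.13 at 24 h (4.09e-07). NCF1 has near-identical copies in the genome, so its reading is uncertain as to copy. Its values follow the shape of NCF4 in all 4 groups.

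CYBC1, a chaperone needed for the CYBB and CYBA proteins to assemble, averaged 8.14 ± 0.17 at 4 h and 8.42 ± 0.10 at 24 h, against 8.78 ± 0.15 in vehicle (SD, n = 3). It fell by 0.64 at 4 h (adjusted p = 0.00238) and by 0.36 at 24 h (0.0382). RAP1A, a small GTPase that copurifies with the membrane subunits, gave 0.12 ± 0.06 at 24 h (adjusted p = 0.0902). HVCN1, the proton channel that balances the charge moved by the oxidase, lay between 2.13 and 2.24 on all arrays, at low signal. Of the 9 measured genes of other NADPH oxidases, 8 had means under 4. The exception was NOXA1, an activator of NOX1, which fell by 0.65 at 4 h (adjusted p = 0.0193) and was not called at 90 min (−0.43 ± 0.18) or 24 h (−0.41 ± 0.18).

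Regulators of Rac moved in both directions from 4 h on. Of 18 measured exchange factors, inhibitors and GTPase-activating proteins, 0 were called at 90 min by limma (6 at an unadjusted p under 0.05). At 4 h 3 rose and 4 fell, and at 24 h 5 rose and 4 fell (medians −0.03, −0.05 and 0.16 at the 3 times). Meanwhile 9.64%, 40.6% and 36.7% of all genes were called. Only 1 of the 18 had a mean under 4, and among genes with a mean of at least 4 the shares called were 18.6%, 47.1% and 63%. TIAM1, a Rac exchange factor, averaged 7.16 at 4 h, against 8.22 in vehicle (−1.06 ± 0.18, adjusted p = 0.000905). ARHGDIA, which holds Rac inactive in the cytosol, rose by 0.92 ± 0.13 at 24 h, and RACGAP1, a GTPase-activating protein best known in cell division, by 1.19 ± 0.07. ARHGAP25, a Rac inactivator of leukocytes, rose by 1.19 ± 0.35, and BCR, another inactivator of Rac, fell by 0.85 (adjusted p = 0.00296).

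Enzymes that switch the oxidase on moved both ways. Of 17 measured kinases and lipid enzymes, 2 rose and 2 fell at 90 min, and 3 rose and 4 fell at 4 h. At 24 h 7 rose and 3 fell (medians 0.02, −0.16 and 0.18 at the 3 times). Of all genes 9.64%, 40.6% and 36.7% were called at these times. Among genes with a mean of at least 4 the shares were 18.6%, 47.1% and 63%. PLD1, a phospholipase D whose product promotes assembly, averaged 8.40 at 90 min, against 7.25 in vehicle (1.15 ± 0.11, adjusted p = 3.82e-05), and 8.46 at 4 h (1.22 ± 0.11). At 24 h PIK3R5, a regulatory subunit of the gamma phosphoinositide 3-kinase, rose by 1.40 ± 0.13, the Src-family kinase LYN by 1.04 ± 0.09, and PRKCZ, an atypical protein kinase C, by at least 1.15 ± 0.16. BTK, a kinase of Fc receptor signalling, fell by 0.95 at 24 h (adjusted p = 1.16e-06), and PLCG2, a phospholipase C, by 0.43 at 90 min (0.0228). PIK3C3, the kinase that makes the lipid bound by the NCF4 product, fell by 0.36 at 90 min (adjusted p = 0.00588) and by 0.36 at 4 h.

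Of 16 measured transcription factors known to act at CYBB or other oxidase genes, 2 rose and 4 fell at 90 min. At 4 h 8 rose and 4 fell, and at 24 h 9 rose and 4 fell (medians 0.06, 0.21 and 0.43 at the 3 times). The shares called were 9.64%, 40.6% and 36.7% of all genes, and 18.6%, 47.1% and 63% of those with a mean of at least 4. SPI1, which encodes PU.1, averaged 7.33 at 24 h, against 5.75 in vehicle (1.58 ± 0.19, adjusted p = 2.11e-05). IRF8, a partner of PU.1 in myeloid cells, averaged 9.88 at 4 h and 9.32 at 24 h, against 11.2 in vehicle, and fell by 1.35 and 1.91 (adjusted p = 1.1e-06 and 1.07e-08). JUN, an AP-1 subunit, rose by 3.38 ± 0.08 at 90 min and by 3.14 ± 0.08 at 24 h. The chromatin organiser SATB1 fell by 1.88 at 4 h and by 1.74 at 24 h, and the homeobox factor MEIS1 by 0.88 at 90 min and 1.84 at 4 h. The interferon factor IRF2 fell by 0.76 at 90 min (adjusted p = 0.0115), and CEBPE, a factor of granulocyte maturation, rose by 0.64 ± 0.13 (0.00690).

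Among enzymes downstream and upstream of the oxidase, falls outnumbered rises at 24 h in both small lists. Of all genes 17.8% rose and 18.9% fell at that time, and 63% of those with a mean of at least 4 were called. At 90 min and 4 h 9.64% and 40.6% of all genes were called, and 18.6% and 47.1% of those with such a mean. Of 10 genes that use or remove superoxide and peroxide, 1 rose at 90 min, 3 fell at 4 h, and 1 rose and 5 fell at 24 h (medians −0.05, −0.14 and −0.40). The peroxiredoxins PRDX6, PRDX1 and PRDX2 fell by 1.05, 0.90 and 0.81 at 24 h, while the glutathione peroxidase GPX1 rose by 0.90 ± 0.06. Of 7 measured genes of NADPH supply, 3 fell at 90 min, 2 rose and 3 fell at 4 h, and 2 rose and 4 fell at 24 h (medians −0.08, −0.33 and −0.34). PGD, an enzyme of the pentose phosphate pathway, rose by 0.71 ± 0.08 at 24 h, and NADK, the kinase that makes NADP from NAD, fell by 0.59 (adjusted p = 7.31e-06).

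**Figure D4:**
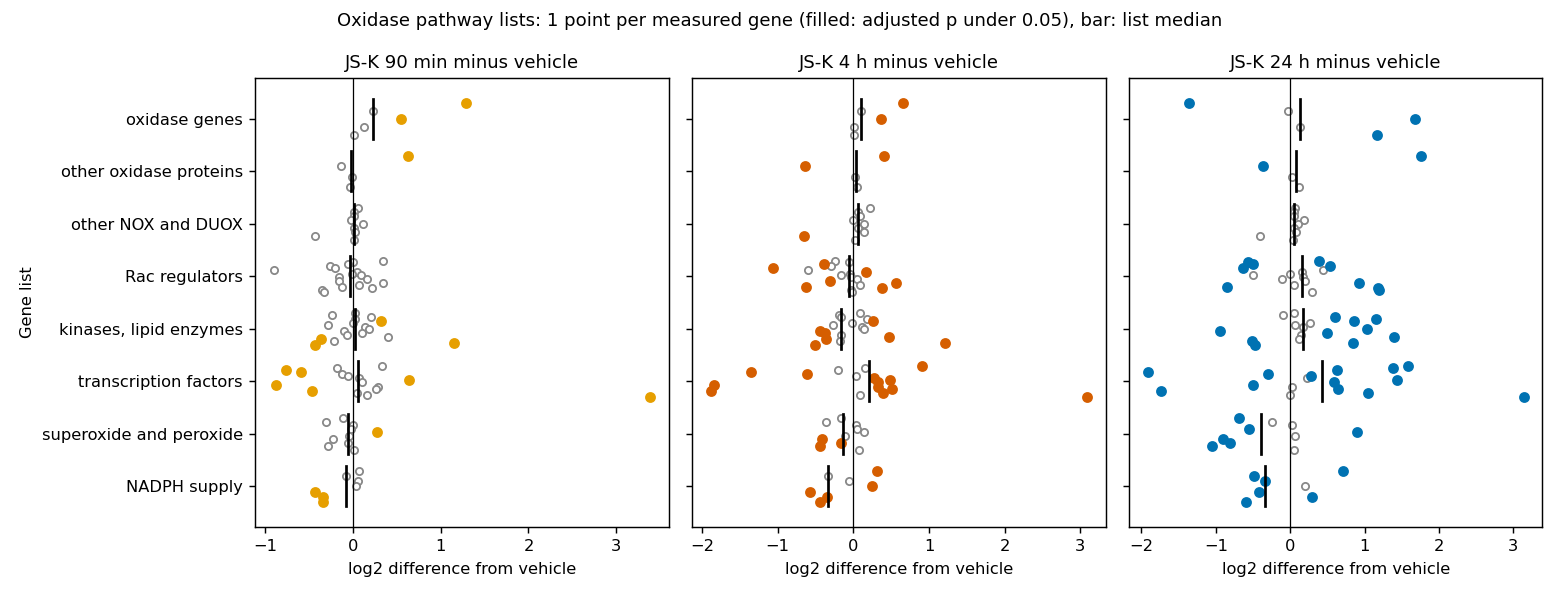
Log2 difference from vehicle (horizontal axis) of each measured gene in the oxidase lists shown, at 90 min, 4 h and 24 h; filled points had an adjusted p under 0.05 in limma, and the black bar is the list median. The medians of the superoxide and peroxide list (−0.40) and of NADPH supply (−0.34) were below 0 at 24 h.

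Myeloid markers moved beside the oxidase genes, and their part in these results was not tested. Of the 14, 2 rose and 1 fell at 90 min, 6 rose and 2 fell at 4 h, and 6 rose and 2 fell at 24 h. The medians were 0.02, 0.10 and 0.22. Beside them, 9.64%, 40.6% and 36.7% of all genes were called, and 18.6%, 47.1% and 63% of those with a mean of at least 4. At 24 h the Fc receptor subunit FCER1G (12.9 against 10.2 in vehicle), the colony-stimulating factor receptor CSF1R (6.99 against 4.19) and the integrin ITGAM (9.13 against 7.56) were among the rises, and the neutrophil elastase gene ELANE (12.8 against 13.6) among the falls. The CD14 and CD163 means stayed under 4 in all groups.

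The genes whose values over the 12 arrays were most like those of CYBB, by Pearson's r, were STS (0.98), a steroid sulfatase, LANCL2 (0.98), CEACAM6 (0.97), a cell adhesion gene, IRS2 (0.97), an insulin receptor substrate, and AGPS (0.97), an enzyme of ether lipid synthesis. The comparison covered 2694 genes with a mean of at least 4 and group means spanning at least 1, or at least 0.5 for the other members. LANCL2 averaged 8.23 at 90 min and 6.32 at 24 h, against 7.25 in vehicle. For NCF4 the nearest of 6169 genes were NCF1 (0.997), PIMREG (0.992) and BIRC5 (0.991), an inhibitor of apoptosis active in mitosis. For RAC2 the nearest were OAS1 (0.991), an interferon-induced synthetase, NOD2 (0.988), a bacterial sensor, and KIF2C (0.987), a mitotic kinesin. NOD2 averaged 3.84 in vehicle, 3.85 at 90 min, 3.96 at 4 h and 5.85 at 24 h, so it met the level limit only through 24 h. OAS1 averaged 3.97, 4.10, 4.21 and 7.28 in these groups. For both, the flat course outside 24 h lay at or near low signal. For CYBA (YPEL3-DT, ABHD5 and POLR3C, 0.91 to 0.92) and RAC1 (RC3H1, POLR2A and APOBR, 0.84 to 0.87) the likeness was lower. The group means of CYBA and RAC1 themselves spanned less than 0.5. Genes that moved as little were left out of the comparison, so the lower r is not read as a result. The 12 points fall into 4 groups and share array and normalization, so r mostly follows the group means and is a description.

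**Figure D5:**
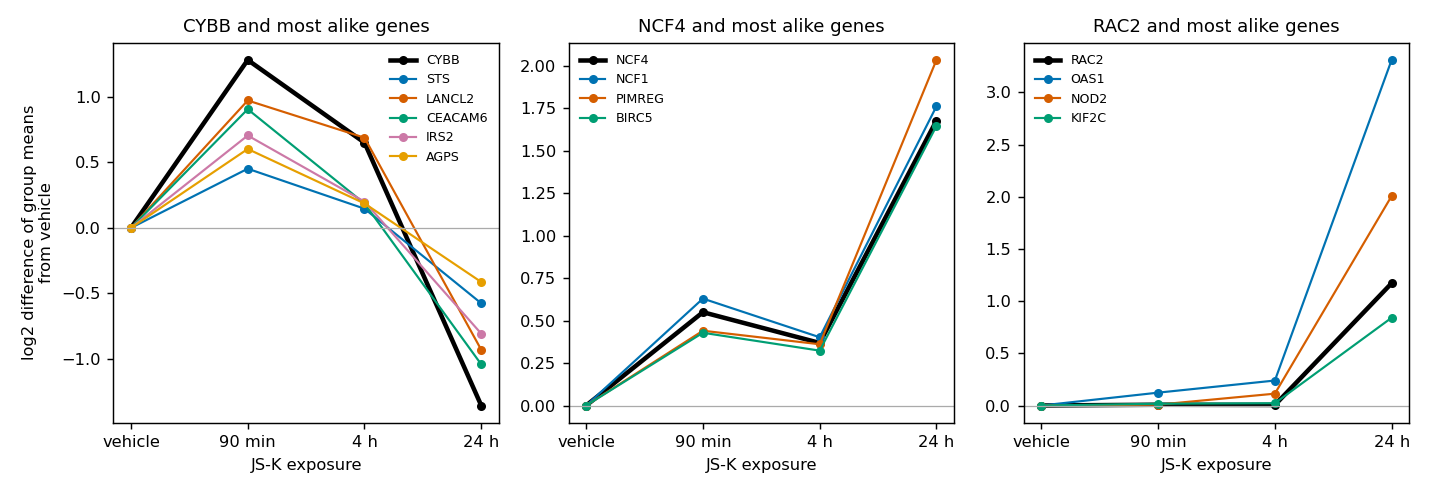
Difference of group means from the vehicle mean (log2, vertical axis) for CYBB, NCF4 and RAC2 in black and for the genes most like each over the 12 arrays in colour. CYBB and its nearest genes rise at 90 min and lie below vehicle at 24 h, NCF4 and NCF1 step up at 90 min and again at 24 h, and RAC2 and its nearest genes rise mainly at 24 h. Outside 24 h, OAS1 and NOD2 lay at or near low signal.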

How the data were processed

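RNA of U937 cells was measured on 12 expression arrays, 3 for each of 4 groups taken from the sample titles. The authors deposited log2 values per probe set, made with GCRMA in Affymetrix Expression Console, per the submitters' processing notes; versions and genome build are not given in the sources used here. Such levels are relative to the other RNA on an array, so a change in total RNA per cell is not visible.

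Of 54675 probe sets, 41097 carried a single gene symbol, 1801 carried several and 11777 had no symbol. Symbols were updated by gene ID through RefSeq (41043 matched), and the brightest probe set stood for each gene. The fit used limma 3.58.1 under R 4.3.3 (lmFit, then eBayes with trend; 8 residual and 3.97 prior degrees of freedom), with no filter on level. Errors are SE of the fit for differences and SD of 3 arrays for levels, and the number of arrays limits the precision. The titles call the replicates biological but name no separate cultures, so p-values cover only the spread among these arrays, which may be technical. Deviations from the group means of same-numbered vehicle and 90 min arrays correlated at 0.263, 0.234 and 0.124, each over 0.1. Vehicle replicate 3 and 90 min replicate 2, of different numbers, reached 0.152, so whether the numbers pair these groups is not settled. In each other pair of groups at least 1 same-numbered correlation was under 0.1. The reported fit used no pairing, and a replicate block was run as an alternative. The procedure was tested on simulated data for 24 h against vehicle. It recovered 87 of 100 changes of 2-fold and 98 of 100 of 4-fold, and called 10 unchanged genes. The simulated noise was independent between arrays, with the same spread in each group, so array, spike and replicate effects were not covered. Only those genes were changed, and in the 24 h group alone. That is a much smaller share than the 36.7% of genes called at 24 h, so recovery and false calls may differ in the real data.

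The members, the 14 lists (162 entries, 145 measured) and the tests were chosen with earlier results of these data known. A list is not reported here. Named genes were the 5 members, the measured genes of the complex, and up to 4 called genes with the largest difference per list and comparison with vehicle; for likeness they were the 5 (CYBB) or 3 highest correlations, without uncharacterised symbols. Motifs were searched in RefSeq sequence of GRCh38.p14. Figures were drawn with matplotlib 3.10.9.

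The settings varied were the prior spread (held constant), the genes kept (the dimmest left out), the summary per gene (averaging, or no summary), quantile normalization, subtraction of array medians, a replicate block, array weights, the 6 arrays compared alone, and leaving out single arrays.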

Additional observations from a re-analysis of the deposited data

Results flagged for a closer look

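For 4 of the 5 oxidase genes the level differed between times of JS-K, by the direct limma test of the later against the earlier time. The shared vehicle arrays cancel in that test. Calls were made on 0 of the 5 at 4 h against 90 min, 3 at 24 h against 4 h and 4 at 24 h against 90 min. Of all genes 10.6%, 23.5% and 30.3% were called. Time in culture, spike handling and JS-K cannot be told apart in these comparisons. CYBB differed by −2.01 ± 0.24 between 24 h and 4 h (adjusted p = 4.08e-05), with differences from vehicle of −1.36 and 0.65. Between 24 h and 90 min it differed by −2.64 ± 0.24 (2.18e-06), with differences from vehicle of −1.36 and 1.28. It was lower in 3 of 3 arrays at 24 h than on every array of the earlier times. CYBA differed by −0.26 ± 0.07 between 24 h and 90 min (adjusted p = 0.0137), with differences from vehicle of −0.02 and 0.23. NCF4 differed by 1.31 ± 0.08 between 24 h and 4 h (2.76e-07) and by 1.13 ± 0.08 between 24 h and 90 min (4.23e-07). RAC2 differed by 1.17 ± 0.07 (1.05e-07) and 1.16 ± 0.07 (4.22e-08) in the same comparisons. Its differences from vehicle were 1.17, 0.01 and 0.01 at 24 h, 4 h and 90 min. For NCF4 and RAC2 every 24 h array lay above every array of the other groups. Such separation was common: at 24 h against vehicle 82.3% of all genes showed it. The share between times of JS-K is not given here, so the separation of CYBB, NCF4 and RAC2 is a description only.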

How the results depend on the processing

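Of 465 alternatives run on the 30 differences of the oxidase genes, 415 kept direction and side of the threshold, 12 lost the call, 13 gained one and 25 turned the sign of a difference that was not called; 15 differences kept both throughout. The rises of NCF4 at 90 min and 24 h and of RAC2 at 24 h, and the CYBB rise at 90 min and fall at 24 h, kept their calls in each of the 16 alternatives run for each. The CYBB rise at 4 h lost its call with a constant spread (0.65, adjusted p = 0.0854), with every probe set (0.65, 0.0535), with array medians subtracted (0.62, 0.0901) and in the 6 arrays alone (0.65, 0.137), where NCF4 at 4 h also did (0.37, 0.0521); the oxidase genes called at 4 h were then 1, 1, 1 and 0. Without single replicates it ranged from 0.37 to 0.90, losing the call without vehicle replicate 2 or 3 or JS-K 4 h replicate 1 or 3, and 1 to 3 oxidase genes were called. CYBA at 90 min was called without the dimmest genes (0.23, 0.0396), after quantile normalization (0.24, 0.0135), with array weights (0.29, 0.000677) and in the 6 arrays alone (0.23, 0.0293), and ranged from 0.19 to 0.26 without single replicates. Array weights also called CYBA at 4 h (0.21) and 24 h against 4 h (−0.21). The mean over probe sets called RAC1 at 4 h (0.26) and 24 h (0.22) and ended the CYBA call at 24 h against 90 min (−0.019, 0.823). It gave 0.10 for CYBA at 24 h, 0.025 for CYBA and −0.036 for RAC1 at 24 h against 4 h, and 0.085 for RAC1 at 4 h against 90 min. For CYBA, 1 of the 2 probe sets averaged had a mean under 4, and for RAC1 1 of 4. Quantile normalization called RAC1 at 24 h (0.21) and gave 0.041 for CYBA at 24 h and 0.068 for RAC2 at 4 h against 90 min. With medians subtracted, RAC1 and RAC2 gave −0.018 and −0.028 at 4 h, and RAC1 −0.081 at 24 h against 90 min; with array weights RAC1 gave 0.0021 at 4 h against 90 min. Without single replicates, CYBA ranged from 0.060 to 0.19 at 4 h, −0.043 to 0.011 at 24 h, −0.21 to −0.084 at 24 h against 4 h and −0.28 to −0.21 at 24 h against 90 min. RAC1 ranged from −0.035 to 0.090 at 4 h, 0.084 to 0.17 at 24 h and −0.040 to 0.050 at 24 h against 90 min. RAC2 ranged from −0.040 to 0.056 at 90 min, −0.043 to 0.049 at 4 h and −0.051 to 0.042 at 4 h against 90 min. Without JS-K 4 h replicate 2, adjusted p-values passed for CYBA at 4 h (0.0385) and 24 h against 4 h (0.0190) and RAC1 at 24 h (0.0428).

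Counts over all genes moved more. At 90 min, 1907 genes were called, 1232 with medians subtracted, 4550 with array weights and 1200 to 2612 without single replicates. At 4 h, 8021 became 4419 (constant spread), 4966 (dimmest left out), 13296 (every probe set), 4872 (quantile), 12272 (weights), 3185 (6 arrays) and 3423 to 11578 without single replicates. At 24 h, 7253 became 12528 (every probe set), 15525 (weights), 14569 (6 arrays) and 5910 to 14505, the last without JS-K 4 h replicate 2. At 4 h against 90 min, 2092 became 1227 (6 arrays) and 1382 to 2481. At 24 h against 4 h, 4649 became 7343 (every probe set). At 24 h against 90 min, 5996 became 10127 (every probe set), 10908 (weights) and 5125 to 11630, again without that array. More probe sets were tested in the setting with every probe set; for the others the cause was not tested. The replicate block changed little at 90 min, the comparison in which same-numbered arrays deviated together. Over all groups, deviations of same-numbered arrays correlated from −0.15 to 0.30, with 6 of 18 pairs over 0.1, against 4 of 36 pairs with different numbers. With a replicate block, 1943 genes were called at 90 min, 10084 at 4 h and 8018 at 24 h, and no call on an oxidase gene changed. Signal over background limits the genes with levels under 4.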

Other observations

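A second RAP1A probe set, 228548_at, did not follow the one used for the gene. It averaged 6.93 at 24 h, against 7.69 at 90 min (−0.76 ± 0.21, adjusted p = 0.0182 over all probe sets in limma), while 202362_at gave 0.16 ± 0.05 in that comparison (adjusted p = 0.0530).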
